A study of Homo sapiens with 192 samples.

Results

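The genes described here are 10 chaperones, folding cofactors and regulators of the endoplasmic reticulum (ER) and its unfolded protein response (UPR). They are HSPA5, HSP90B1, CALR, DNAJB9, DNAJB11, SDF2L1, PDIA4, CRELD2, HERPUD1 and XBP1. They were chosen by name, as genes of known function, with earlier results of these data known but by no threshold on the counts. All 10 were found among the 58243 Ensembl identifiers of the count tables, and all 10 were among the 19387 genes that passed a filter on low counts and were tested. RNA was sequenced from HT29, LS513, HCT116 and LS174T, which are established human colorectal cancer (CRC) cell lines, each grown either in 2D or in 3D. No treatment distinguished the groups, so that 4 lines and 2 forms of growth gave 8 groups of 3 libraries. The lines differ in genotype. The paper treats HCT116 and LS174T as microsatellite instable and HT29 and LS513 as microsatellite stable. HCT116 was kept in McCoy medium and the other lines in DMEM, so line and medium cannot be told apart where HCT116 is compared with another line. How long and on what support the 3D samples were grown is not given in the sources used here. The labels do not say whether the 3 libraries of a group came from separate cultures, so that the p-values measure the spread between these libraries, which may be technical.

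Each library was sequenced in 8 technical replicates, whose counts were added (7 for HT29 3D replicate 4, of which 1 was not analysed here), and held between 18723942 and 34277421 counts with a median of 30777613. A level is given in CPM, the counts of a gene scaled to a common library total, after adjustment by the trimmed mean of M values (TMM), and 3 counts correspond to between 0.0875 and 0.16 CPM. Among the markers of cell type, EPCAM, KRT8 and KRT18, which define epithelium, were above 3 counts in all 24 libraries. PTPRC and CD3E, which define leukocytes, and COL1A2, COL3A1, DCN and LUM, made by fibroblasts, were above 3 counts in none. The summed level of the 5 immune markers was nevertheless higher in 3D, between 61.7 and 91.9 CPM in LS513 against at most 20.5 CPM in 2D, and of these CD68, a lysosomal protein, was the marker above 3 counts in every library. In a bulk sample, fewer cells that make an RNA and less of that RNA per cell cannot be told apart.

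Proteins that are secreted or inserted into membranes fold in the ER, where HSPA5 (BiP) binds unfolded chains with the help of J-domain partners, HSP90B1 (GRP94) matures a narrower set of clients, and CALR (calreticulin) retains glycoproteins that are not yet folded. When unfolded chains accumulate, the sensors IRE1, ATF6 and PERK are released from restraint. IRE1 splices the XBP1 mRNA, ATF6 is cleaved by Golgi proteases to a transcription factor, and PERK slows translation while favoring that of ATF4. Spliced XBP1 and cleaved ATF6 raise the chaperones, and ATF4 raises genes of amino acid supply and of stress-induced death. Counts per gene do not tell spliced from unspliced XBP1. Intestinal secretory cells make large amounts of mucin and are known for a high demand on this system.

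The promoters of these genes are where ATF6 and XBP1 are known to act, through the ER stress response element. This element, ERSE, consists of CCAAT and CCACG separated by any 9 bases, and a compact form, ERSE-II, consists of ATTGG and CCACG separated by any 1 base. Both strands were searched, with no mismatch, in RefSeq promoter windows (build GRCh38.p14) that run from 250 bases before each transcript start to 50 bases after it. All 10 genes had a window. ERSE was found for 5 of the 10 genes and ERSE-II for the other 2 with an element, so that 7 of 10 carried an element, against 44 of all 27305 genes with a window (0.161%). The 10 genes were chosen as known genes of the response that acts through these elements. Their high share therefore follows from the choice and is no test. ERSE by itself was present in 0.0916% and ERSE-II in 0.0696% of all genes. The elements of HSPA5, XBP1, HERPUD1, SDF2L1 and CALR lay upstream of every annotated start, and the stretches around them are printed in the direction of the transcript, with the element in capitals, to show how alike they are and what surrounds them:

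HSPA5, ERSE, chr9:125241351-125241449, minus strand: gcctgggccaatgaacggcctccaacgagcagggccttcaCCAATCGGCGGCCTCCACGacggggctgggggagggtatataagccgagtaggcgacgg

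XBP1, ERSE, chr22:28800598-28800661, minus strand: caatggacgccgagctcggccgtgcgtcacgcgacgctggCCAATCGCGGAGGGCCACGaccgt

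CALR, ERSE read on the opposite strand, chr19:12938359-12938442, plus strand: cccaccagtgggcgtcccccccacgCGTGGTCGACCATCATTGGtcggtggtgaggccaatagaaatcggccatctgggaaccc

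HERPUD1, ERSE-II, chr16:56931985-56932047, plus strand: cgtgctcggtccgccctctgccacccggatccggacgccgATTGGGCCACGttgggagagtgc

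SDF2L1, ERSE-II read on the opposite strand, chr22:21642074-21642164, plus strand: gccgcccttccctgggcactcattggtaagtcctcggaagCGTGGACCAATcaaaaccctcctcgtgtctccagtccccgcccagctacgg

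The element began 66 bases before the RefSeq start in HSPA5, 52 bases in XBP1, 117 bases in HERPUD1, 188 bases in SDF2L1 and 225 bases in CALR. HSP90B1 held a pair of ERSE, on opposite strands, beginning 194 and 89 bases upstream, and CRELD2 held an ERSE 80 bases upstream. PDIA4, DNAJB9 and DNAJB11 held neither element in these windows, although CCACG by itself was present for PDIA4 and DNAJB9. CCACG was found in 42.1% of all genes and CCAAT in 39.7%, and CCAAT was found in all 10 members. The core of the ATF4-type amino acid response element, TGATGCAA, was found in HERPUD1 and in no other member, against 1.08% of all genes. The core TGACGTGG, bound by XBP1, was found in none of the 10 and in 0.927% of all genes. These matches are descriptions of letters in a window, and no binding was measured here.

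**Figure D1:**
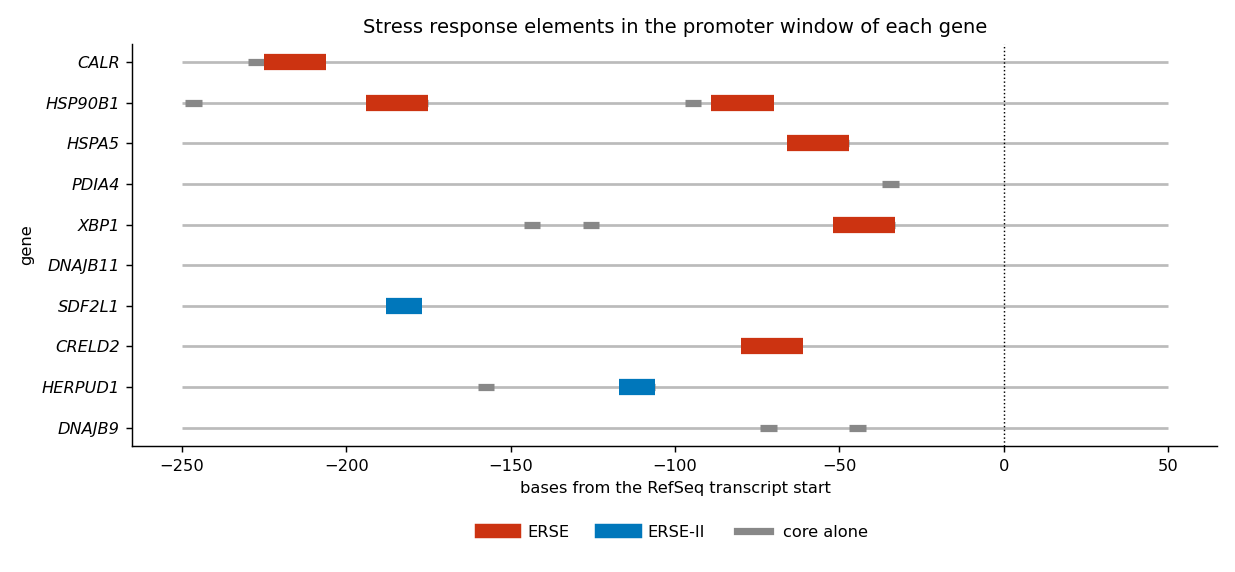
Position of the elements in the promoter window of each gene, in bases from the RefSeq transcript start (dotted line). Wide red bars are ERSE, wide blue bars are ERSE-II and narrow gray bars are the CCACG core outside an element; 7 of the 10 genes have a wide bar, all of them upstream of the start.

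Levels were compared between genes per kilobase (kb) of the principal transcript (GENCODE 29), as the mean over the 8 groups. The abundant chaperones and the oxidoreductase were far above the cofactors. CALR was at 545 CPM per kb, HSP90B1 at 404, HSPA5 at 217 and PDIA4, a protein disulfide isomerase, at 211 CPM per kb. XBP1 stood between, at 112 CPM per kb. The cofactors followed, with DNAJB11 and SDF2L1, which work together on HSPA5 clients, at 44.5 and 42.1 CPM per kb, and CRELD2, a disulfide isomerase of the cysteine-rich EGF-like type, at 33.6 CPM per kb. HERPUD1, an ER membrane protein of the degradation machinery, was at 20.0 and DNAJB9, a J-domain partner that restrains IRE1, at 4.41 CPM per kb. The lowest count of any member in any library was 195, for DNAJB9, so that no member was near the floor of 3 counts. By GENCODE 29, HSPA5, SDF2L1, PDIA4, HERPUD1 and XBP1 shared no exonic base with another gene. DNAJB11 shared 451 exonic bases with AC068631.2 and HSP90B1 shared 131 with MIR3652 on the same strand, so that part of their reads may not have been assigned. HSP90B1, CALR, DNAJB9, DNAJB11 and CRELD2 shared exonic bases with a gene on the opposite strand, which matters only if counting ignored the strand. The annotation and settings used for counting were not examined for these overlaps.

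**Figure D2:**
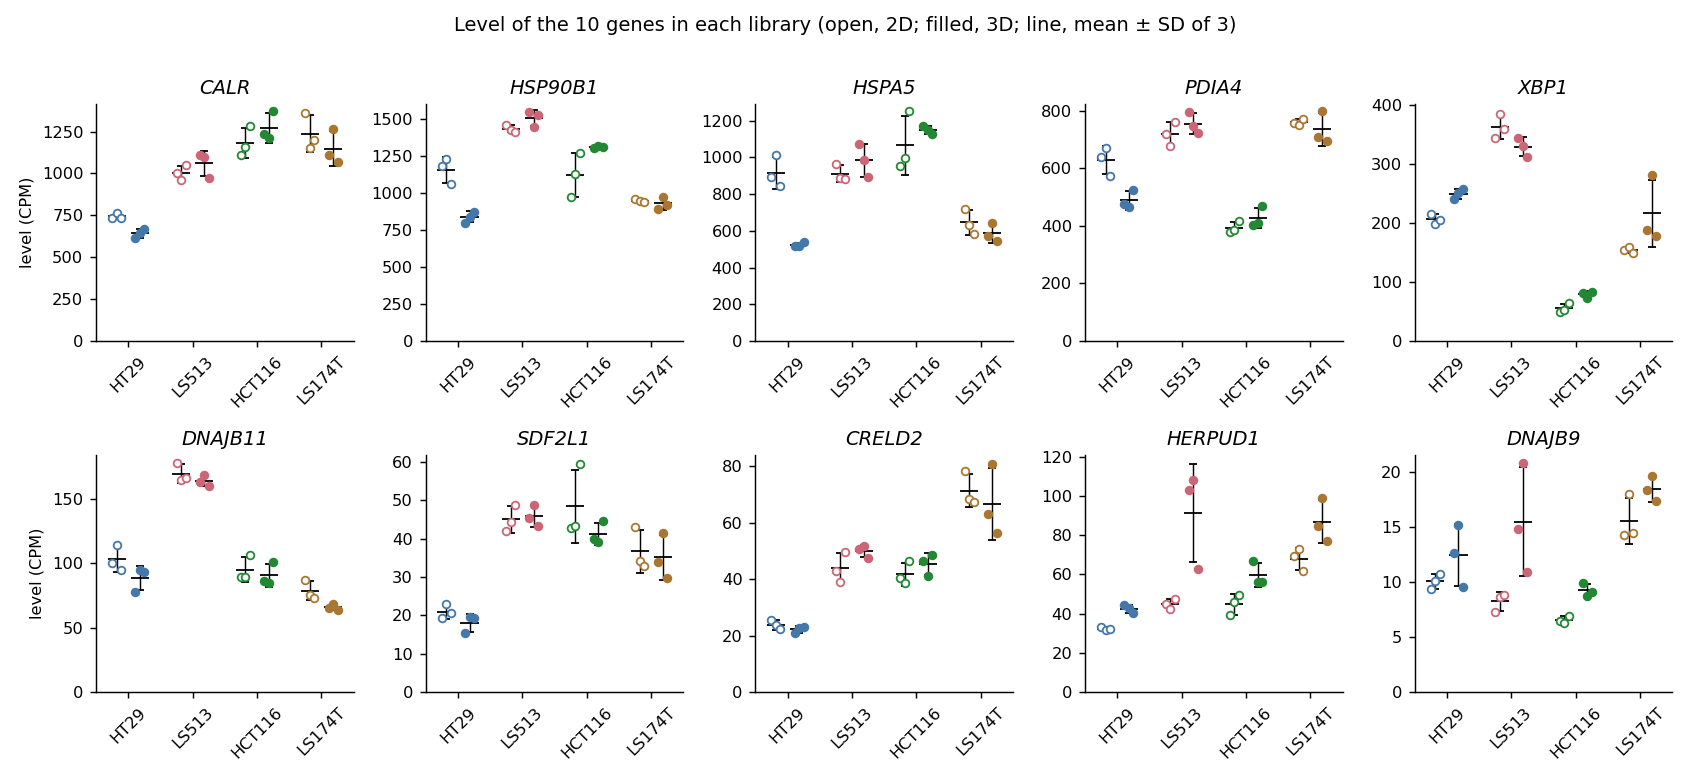
Level of the 10 genes in every library, in CPM on linear axes that start at 0, with open points for 2D, filled points for 3D, and the mean ± SD of the 3 libraries as black marks. HSPA5, HSP90B1 and PDIA4 are lower in all 3D libraries than in all 2D libraries of HT29, and HERPUD1 is higher in 3D without overlap in each of the 4 lines. The share of all tested genes without overlap was not computed.

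The first question was whether growth in 3D changed these genes within a line. A gene is said to have risen or fallen where edgeR's quasi-likelihood test gave a Benjamini-Hochberg adjusted p under 0.05 over the 19387 genes tested, two-sided and with no fold cutoff. Log2 fold changes are for 3D over 2D and are followed by their standard error (SE). Where 2D and 3D libraries are said not to overlap, this only describes the values of 3 against 3 libraries. The share of all tested genes without overlap was not computed.

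In HT29, HSPA5, HSP90B1 and PDIA4 fell in 3D while the degradation gene HERPUD1 rose. Of the 10 genes, 1 rose and 3 fell, against 21.1% of all tested genes that rose and 19.6% that fell. HSPA5 was at 893, 1013 and 842 CPM in 2D and at 516, 519 and 537 CPM in 3D. The 2D and 3D libraries were thus well apart, and HSPA5 had its lowest level of all 8 groups in HT29 3D. The log2 fold change was -0.81 (SE 0.11, edgeR adjusted p 3.66e-06). HSP90B1 was at 1183, 1226 and 1060.0 CPM in 2D and at 799.9, 840.4 and 874 CPM in 3D, again without overlap (log2 fold change -0.46, SE 0.09, edgeR adjusted p 1.78e-04). PDIA4 was at 640.4, 668.5 and 574 CPM in 2D and at 476, 464 and 525.5 CPM in 3D, with a log2 fold change of -0.36 (SE 0.09, edgeR adjusted p 0.00173). These 3 genes passed the test under every alternative that was run in HT29. CALR and DNAJB11 had log2 fold changes of the same sign, -0.21 and -0.22, that did not pass (edgeR adjusted p 0.0607 and 0.0756), although CALR did when only the 6 HT29 libraries were fitted (0.033).

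HERPUD1 in HT29 was at 33.4, 31.6 and 32.0 CPM in 2D and at 44.3, 42.7 and 40.3 CPM in 3D. The groups did not overlap, and the log2 fold change was 0.39 (SE 0.15, edgeR adjusted p 0.0365). This call was lost without 2D replicate 2, 2D replicate 3 or 3D replicate 1, with edgeR adjusted p between 0.0659 and 0.0776. XBP1 had a log2 fold change of 0.27 (SE 0.12, edgeR adjusted p 0.0765), with all 3D libraries, at 240.2 to 257 CPM, above all 2D libraries, at 198 to 215 CPM. It passed when only the 6 HT29 libraries were fitted (edgeR adjusted p 0.00489), with no filter on low counts (0.0286), with DESeq2 size factors (0.0478) and with DESeq2 (0.0452), and in 9 fits without a library of another line, with the lowest value, 0.00304, without LS174T 3D replicate 2. DNAJB9 had a log2 fold change of 0.31 (edgeR adjusted p 0.175), and passed only without 3D replicate 4, the lowest of its 3D libraries (0.51, edgeR adjusted p 0.036).

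In LS513, the 2 genes that rose were HERPUD1 and DNAJB9, and none of the 10 fell. Among all tested genes, 13.7% rose and 9.9% fell. HERPUD1 was at 44.9, 42.3 and 47.7 CPM in 2D and at 103, 108 and 62.7 CPM in 3D. All 3D libraries were above all 2D libraries, and 3D replicate 3 was well below the other two. The fold change was 2.03, or 1.02 on the log2 scale (SE 0.15, edgeR adjusted p 1.93e-05). DNAJB9 was at 7.24, 8.61 and 8.81 CPM in 2D and at 14.8, 20.7 and 10.9 CPM in 3D, with a log2 fold change of 0.91 (SE 0.18, edgeR adjusted p 6.61e-04). The same 3D library, replicate 3, was the lowest for both genes. Both calls held under every alternative. HSPA5, HSP90B1, CALR and PDIA4 had log2 fold changes between 0.07 and 0.11 in LS513, each with an SE of 0.09 to 0.11, and XBP1 had -0.14 (SE 0.12).

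In HCT116, XBP1, DNAJB9 and HERPUD1 rose and none of the 10 fell, against 16.8% of all tested genes that rose and 12.3% that fell. XBP1 was at 49.96, 53.3 and 63.6 CPM in 2D and at 81.6, 72.1 and 83.4 CPM in 3D, which was a log2 fold change of 0.51 (SE 0.12, edgeR adjusted p 0.00347). DNAJB9 was at 6.40, 6.24 and 6.93 CPM in 2D and at 9.87, 8.69 and 9.09 CPM in 3D (log2 fold change 0.50, SE 0.18, edgeR adjusted p 0.0428). HERPUD1 was at 39.1, 45.7 and 49.7 CPM in 2D and at 67.0, 56.2 and 56.1 CPM in 3D (log2 fold change 0.41, SE 0.15, edgeR adjusted p 0.0352). None of the 3 overlapped between 2D and 3D. The calls of DNAJB9 and HERPUD1 were close to the threshold. The call of DNAJB9 was lost without any of the 6 HCT116 libraries (edgeR adjusted p between 0.0649 and 0.14) and without technical replicate d of every library (0.0502), and that of HERPUD1 without any of them but 2D replicate 3 (between 0.0509 and 0.183). Leaving out a library of another line took the call of DNAJB9 to at most 0.0588, in 8 fits, and that of HERPUD1 to at most 0.0528, in the 6 fits without an HT29 library. HSP90B1 was higher in all 3D libraries, at 1303 to 1318 CPM, than in the 2D libraries, at 975, 1126 and 1272 CPM, but missed the threshold (log2 fold change 0.22, SE 0.09, edgeR adjusted p 0.0542). It passed without 2D replicate 3 (0.29, edgeR adjusted p 0.0157), with DESeq2 size factors (edgeR adjusted p 0.0487) and with DESeq2 (adjusted p 0.0154).

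In LS174T, XBP1 was the gene that rose and none of the 10 fell, against 13.1% and 9.15% of all tested genes. XBP1 was at 154, 159 and 148.5 CPM in 2D and at 189, 282 and 178 CPM in 3D. The log2 fold change of 0.49 (SE 0.12, edgeR adjusted p 0.00659) rested on 3D replicate 2, which stood far above the other two. Without it the change was 0.26 (edgeR adjusted p 0.0629). HERPUD1 was at 61.8 to 72.9 CPM in 2D and at 77.1 to 98.9 CPM in 3D, with a log2 fold change of 0.35 (SE 0.14, edgeR adjusted p 0.0816), and it passed without 3D replicate 3 (0.43, edgeR adjusted p 0.0396) and without LS513 3D replicate 3 (0.36, edgeR adjusted p 0.0166), and with no filter on low counts (edgeR adjusted p 0.0375). DNAJB11 had a log2 fold change of -0.26 (SE 0.10, edgeR adjusted p 0.0602), with 63.5 to 67.9 CPM in 3D below 73.0 to 87.0 CPM in 2D. The other 7 genes had log2 fold changes between -0.14 and 0.24. At an unadjusted p under 0.05, edgeR gave 0 members lower in LS513, 0 in HCT116 and 1, DNAJB11, in LS174T, and DESeq2's adjusted p gave the same counts. The share of all tested genes was not computed for these 2 settings.

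**Figure D3:**
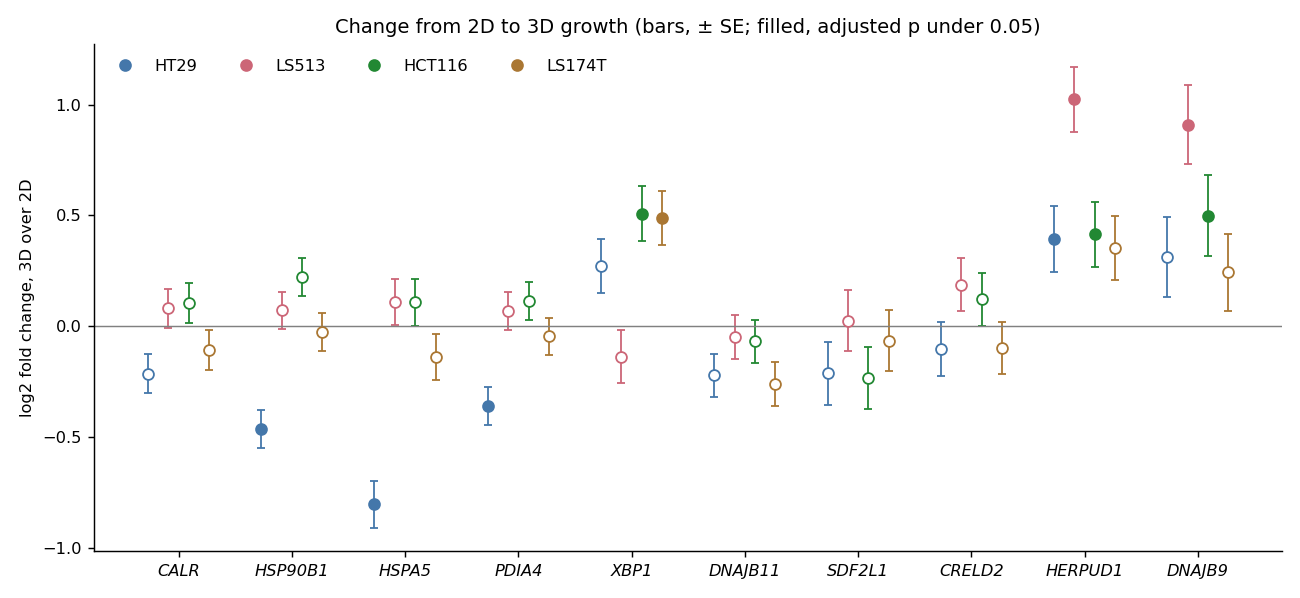
Log2 fold change of each gene from 2D to 3D growth in each line, with bars of ± 1 SE and filled points where the edgeR adjusted p is under 0.05. The blue HT29 points of HSP90B1, HSPA5 and PDIA4 are filled below 0, and every filled point above 0 belongs to XBP1, HERPUD1 or DNAJB9.

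SDF2L1 and CRELD2 passed in no line, in 3D against 2D. The log2 fold changes of SDF2L1 ran from -0.23 in HCT116 to 0.02 in LS513, and those of CRELD2 from -0.10 in HT29 to 0.19 in LS513, with an SE of 0.12 to 0.14.

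The second question was whether the effect of growth differed between the lines, which was tested by an interaction F test with 3 degrees of freedom. It passed for 4 of the 10 genes, against 17.1% of all tested genes. HSPA5 passed with an edgeR adjusted p of 1.85e-04 and HSP90B1 with 0.0013, and both passed whichever library was left out. For both, the fall in HT29 stood beside changes in the other lines between -0.14 and 0.22. PDIA4 passed with 0.0219, but not when 11 of the 24 libraries were left out in turn, with an edgeR adjusted p of up to 0.166, nor with no filter on low counts (0.249). These 11 were HT29 2D replicates 1 and 2, HT29 3D replicates 1 and 3, every LS513 3D library, HCT116 2D replicate 3 and every HCT116 3D library. XBP1, with an increase in HCT116 and LS174T and a log2 fold change of -0.14 in LS513, passed with 0.0255, and lost the call without replicate 2 or 3 of LS513 2D or of LS513 3D (up to 0.0802). With a block for equal replicate numbers, HSPA5 passed (edgeR adjusted p 0.0163), while HSP90B1 (0.0644), PDIA4 (0.153) and XBP1 (0.0556) did not. HERPUD1 had an edgeR adjusted p of 0.0537, on the other side of the threshold. It passed with DESeq2 (adjusted p 0.0345), with no filter on low counts (edgeR adjusted p 0.00408) and in 3 of the 24 fits that left out a library, so that whether its rise differed between the lines depended on the setting. DNAJB9 had 0.189.

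The third comparison was of levels between the lines. Of the 60 combinations of a gene and a pair of lines, 46 differed in 2D and 46 in 3D, or 76.7%, against 64.7% of all such combinations in 2D and 65.4% in 3D. XBP1 varied most. In 2D, it was at 362 ± 20.2 CPM in LS513, 206 ± 8.64 in HT29, 154 ± 5.18 in LS174T and 55.6 ± 7.09 CPM in HCT116 (SD, n = 3). All 6 pairs of lines differed, and LS513 was 6.51-fold above HCT116 (log2 difference 2.70, SE 0.13, edgeR adjusted p 6.05e-15). In 3D, LS513 was 4.16-fold above HCT116 at 329 against 79.0 CPM, and HT29 and LS174T, next to each other in the order, did not pass (edgeR adjusted p 0.139).

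The chaperones differed less. HSPA5 in 2D was highest in HCT116, at 1065 ± 162 CPM, followed by HT29 at 916 ± 87.5 and LS513 at 911 ± 45.8 CPM, and lowest in LS174T at 646 ± 67.7 CPM (1.65-fold below HCT116, edgeR adjusted p 2.01e-06). HCT116 and HT29 did not differ beyond the threshold (edgeR adjusted p 0.0696), nor did HT29 and LS513 (0.988), while LS513 was above LS174T (2.81e-04). In 3D, HT29 took the lowest place at 524 ± 11.4 CPM, next to LS174T at 586 ± 50.4 CPM (edgeR adjusted p 0.185), and HCT116 was 2.19-fold above it. HSP90B1 was highest in LS513 in both forms of growth, at 1433 ± 23.2 CPM in 2D and 1505 ± 53.9 CPM in 3D. It was lowest in LS174T in 2D and, at 838 ± 37.1 CPM, in HT29 in 3D. CALR was lowest in HT29 in both, at 744 ± 16.5 and 642 ± 29.6 CPM, and highest in LS174T in 2D (1238 ± 107 CPM) and in HCT116 in 3D (1273 ± 88.6 CPM).

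PDIA4 was lowest in HCT116, at 394 ± 19.1 CPM in 2D and 426.5 ± 35.7 CPM in 3D. LS174T and LS513 held the upper places, at 759 ± 11.5 and 719 ± 42.1 CPM in 2D, with no difference past the threshold between them (edgeR adjusted p 0.456). DNAJB11 was highest in LS513, at 169 ± 7.30 CPM in 2D, 2.16-fold above LS174T, the lowest line (edgeR adjusted p 1.03e-09). SDF2L1, CRELD2 and HERPUD1 were lowest in HT29 in both forms of growth. For SDF2L1 in 2D, HT29 was at 20.9 ± 1.87 CPM and HCT116, the highest, at 48.5 ± 9.55 CPM. CRELD2 was highest in LS174T, where it was 3.00-fold above HT29 in 2D and 3.01-fold in 3D. HERPUD1 in 2D was highest in LS174T at 68.0 ± 5.68 CPM, and in 3D LS513 came level with it, at 91.4 ± 25.0 against 86.9 ± 11.1 CPM (edgeR adjusted p 0.687). DNAJB9 was highest in LS174T in both forms of growth, at 15.6 ± 2.10 and 18.4 ± 1.15 CPM, and lowest in HCT116, at 6.53 ± 0.361 and 9.22 ± 0.602 CPM.

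Within lines, the 10 genes did not vary as a single group. Pearson's r was taken over the 24 libraries on log2 CPM after each line was centered on its mean, and is given as a description, since the libraries of a line share their cells and the change between 2D and 3D enters every value. HSPA5 had r of 0.899 with HSP90B1, 0.847 with PDIA4 and 0.781 with CALR. With HERPUD1 it had -0.05, with DNAJB9 -0.06 and with XBP1 -0.15. HERPUD1 and DNAJB9 had the highest value of any pair, 0.902. The lumenal chaperones thus varied with one another, and HERPUD1 and DNAJB9 varied with each other. Of the genes outside the 10, the 5 most like HSPA5 were CAPN2 and EMP3 (both 0.923), TFF1 (0.918), S100A2 (0.911) and CLU (0.900). CAPN2 is a calpain protease and TFF1 a secreted trefoil peptide. Each of these 5 fell in HT29, with log2 fold changes between -3.23 for TFF1 and -1.07 for CAPN2. They were picked for likeness to HSPA5, which fell there, so this follows largely from the choice and is no test. In LS513, TFF1 and CAPN2 rose (1.05 and 0.30, edgeR adjusted p 0.00514 and 0.02). CLU fell in LS174T (-0.86, edgeR adjusted p 0.003), and the other changes outside HT29 did not pass.

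**Figure D4:**
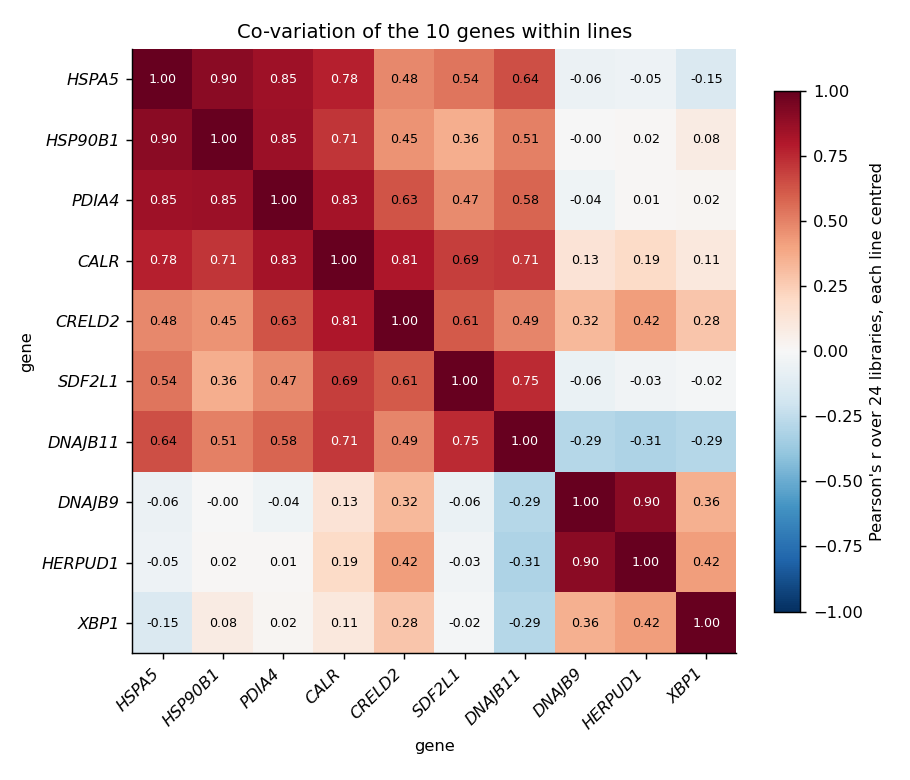
Pearson's r between each pair of the 10 genes over 24 libraries, after each line was centered on its mean, on a color scale from -1 (blue) to 1 (red). HSPA5, HSP90B1, PDIA4 and CALR form a red block at the upper left, and HERPUD1 and DNAJB9 share a value of 0.90 while both are near 0 with HSPA5.

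The other genes of the pathway were taken from lists named by function. Of the 6 lists, the PERK-ATF4 arm had the highest and the heat shock list the lowest median log2 fold change in each line. By edgeR or by DESeq2, 0 of the 10 genes rose in all 4 lines and 0 fell in all 4, against 3.14% and 2.46% of all tested genes by edgeR. At an unadjusted p under 0.05, 1 gene, HERPUD1, was higher in 3D in all 4 lines, and none was lower in all 4. The share of all tested genes at that looser threshold was not computed, so this count has nothing to be set against. In the list of 7 sensors and their processing proteases, ERN1 (IRE1 alpha) rose in LS513, from 18.8 ± 1.58 to 24.9 ± 0.601 CPM (log2 fold change 0.41, edgeR adjusted p 0.0287), and had log2 fold changes between -0.14 and 0.08 in the other lines. ERN2 (IRE1 beta), the form of the intestinal epithelium, rose in HT29 from 8.12 ± 3.17 to 32.7 ± 0.800 CPM (2.04, edgeR adjusted p 2.25e-08) and in LS174T from 27.8 ± 0.327 to 39.7 ± 9.10 CPM (0.51, edgeR adjusted p 0.0335). It was at 150.2 ± 7.46 CPM in LS513 2D and at 0.110 ± 0.0573 CPM, about the floor, in HCT116 2D. EIF2AK3 (PERK) passed in no line, with log2 fold changes between -0.08 and 0.24. ATF6 fell in HT29 (-0.27, edgeR adjusted p 0.0284) and its relative ATF6B rose there (0.36, edgeR adjusted p 0.0138). Of the Golgi proteases that cleave ATF6, MBTPS1 rose in HCT116 (0.23, edgeR adjusted p 0.0278) and MBTPS2 fell in HT29 (-0.41, edgeR adjusted p 0.0347).

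In the PERK-ATF4 list of 12 genes, 9 rose in LS513, 8 in LS174T, 6 in HT29 and 5 in HCT116, and 1 fell, in HT29. Of all tested genes, 13.7% rose in LS513, 13.1% in LS174T, 21.1% in HT29 and 16.8% in HCT116, and 19.6% fell in HT29. The median log2 fold change was 1.65 in LS513, 1.01 in LS174T, 0.39 in HT29 and 0.38 in HCT116, where the median of all tested genes was between 0.00 and 0.02. ATF3, PPP1R15A and DDIT4 rose in all 4 lines. DDIT4, an inhibitor of mTORC1 signaling, went from 10.1 ± 0.670 to 127 ± 24.2 CPM in LS513 (3.64, edgeR adjusted p 6.19e-09) and from 33.6 ± 5.89 to 249 ± 52.7 CPM in HCT116 (2.89, edgeR adjusted p 5.72e-08). ATF3, a stress-induced transcription factor, went from 5.56 ± 0.677 to 24.9 ± 14.5 CPM in LS174T (2.16, edgeR adjusted p 3.43e-04). NUPR1, a stress-induced nuclear protein, was at 2, 0 and 4 counts in HT29 2D and at 68, 69 and 54 counts in HT29 3D (edgeR adjusted p 6.03e-07). ASNS, asparagine synthetase, was the gene that fell in HT29, from 127 ± 25.1 to 71.7 ± 5.80 CPM (-0.83, edgeR adjusted p 1.10e-04), and it rose in LS513 (0.93, edgeR adjusted p 5.71e-05). The lists hold 84 genes, and this arm was the only one of the 6 with at least 5 increases in every line. The list is named for a pathway, and whether PERK acted on these genes was not tested.

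Other ER folding genes (19 tested) split. Among all tested genes, 21.1% rose and 19.6% fell in HT29. The shares were 13.7% and 9.9% in LS513, 16.8% and 12.3% in HCT116, and 13.1% and 9.15% in LS174T. In HT29, 4 rose and 8 fell, with CANX, the membrane-bound partner of CALR, at 1051 CPM in 2D and 665 CPM in 3D (-0.66, edgeR adjusted p 8.36e-05) and UGGT1, the sensor of glycoprotein folding, at 157 ± 0.825 and 89.2 ± 9.34 CPM (-0.82, edgeR adjusted p 2.10e-04). AGR2, a disulfide isomerase needed for mucin folding, rose there from 86.4 ± 4.72 to 329 ± 3.66 CPM (1.93, edgeR adjusted p 8.38e-08) and in LS174T from 712 ± 69.3 to 1734 ± 496 CPM (1.28, edgeR adjusted p 4.09e-05). ERO1A, the oxidase that recharges disulfide isomerases, rose in LS513 from 133 ± 5.58 to 246 ± 5.22 CPM (0.88, edgeR adjusted p 4.57e-04) and in HCT116 from 88.6 ± 7.09 to 208 ± 68.1 CPM (1.23, edgeR adjusted p 1.10e-05). DNAJC10, a reductase with a J domain, fell in HCT116 from 84.8 ± 19.5 to 42.5 ± 10.7 CPM (-0.995, edgeR adjusted p 4.92e-04) and in LS174T from 128 ± 2.13 to 75.7 ± 22.0 CPM (-0.75, edgeR adjusted p 0.00722). ERO1B fell in LS513, from 0.950 to 0.549 CPM (-0.78, edgeR adjusted p 0.0197). Outside HT29, 5 rose and 2 fell in LS513, 6 and 2 in HCT116, and 4 and 4 in LS174T. HYOU1, CANX, PDIA6 and ERO1B of this list carried an ERSE or ERSE-II, among the 18 of 19 genes with a promoter window. Of the other 5 lists, a window was given for 6 of 7 sensors and proteases, 12 of 15 degradation genes, 17 of 20 entry and exit genes, 11 of 12 PERK-ATF4 genes and all 11 heat shock genes, and none of these windows held either element.

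In ER-associated degradation (15 genes), 3 rose and 5 fell in HT29, while 3, 2 and 2 rose and 0, 0 and 1 fell in LS513, HCT116 and LS174T. Among all tested genes, 21.1% rose and 19.6% fell in HT29. In LS513, HCT116 and LS174T, 13.7%, 16.8% and 13.1% rose and 9.9%, 12.3% and 9.15% fell. OS9, a lectin that delivers misfolded glycoproteins, rose in all 4 lines, from 110 ± 8.39 to 183 ± 8.22 CPM in HCT116 (0.74, edgeR adjusted p 2.02e-05), by 0.54 and 0.55 on the log2 scale in HT29 and LS513, and by 0.37 in LS174T. SEL1L, which holds the ubiquitin ligase complex together, fell in HT29 (-0.62, edgeR adjusted p 0.00372). In LS174T, SELENOS rose (0.49, edgeR adjusted p 0.00664) and EDEM3, a mannosidase, fell (-0.72, edgeR adjusted p 0.0363). In ER entry and exit (20 genes), 4 rose and 8 fell in HT29, against the same 21.1% and 19.6% of all tested genes. There, SSR2 of the translocon was at 0.65 (edgeR adjusted p 8.08e-04) and the cargo receptor LMAN1 at -0.71 (edgeR adjusted p 2.84e-04). The translocon subunit SEC61G rose in LS513 (0.79, edgeR adjusted p 5.27e-05) and LS174T (0.94, edgeR adjusted p 9.04e-06). SEC23B, a coat protein of vesicles that leave the ER, fell in LS513 (-0.39, edgeR adjusted p 0.0013). In HCT116, SSR4 rose (0.56, edgeR adjusted p 0.00686) and SPCS1, of the signal peptidase, fell (-0.26, edgeR adjusted p 0.0304).

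The cytosolic heat shock list (11 genes) had a median log2 fold change below 0 in every line, opposite in sign to that of the PERK-ATF4 list. In HCT116 10 fell, in HT29 9, in LS513 4 and in LS174T 3, against 12.3%, 19.6%, 9.9% and 9.15% of all tested genes. HSPH1, the HSP110 chaperone, had the largest fall of the list in each line, from 748 ± 116 to 251 ± 18.2 CPM in HT29 (-1.58, edgeR adjusted p 5.23e-08), and by 0.95 to 1.20 on the log2 scale in the other lines. HSPB1, a small heat shock protein, rose in LS513 (0.51, edgeR adjusted p 0.00599), and was the gene of this list that rose.

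**Figure D5:**
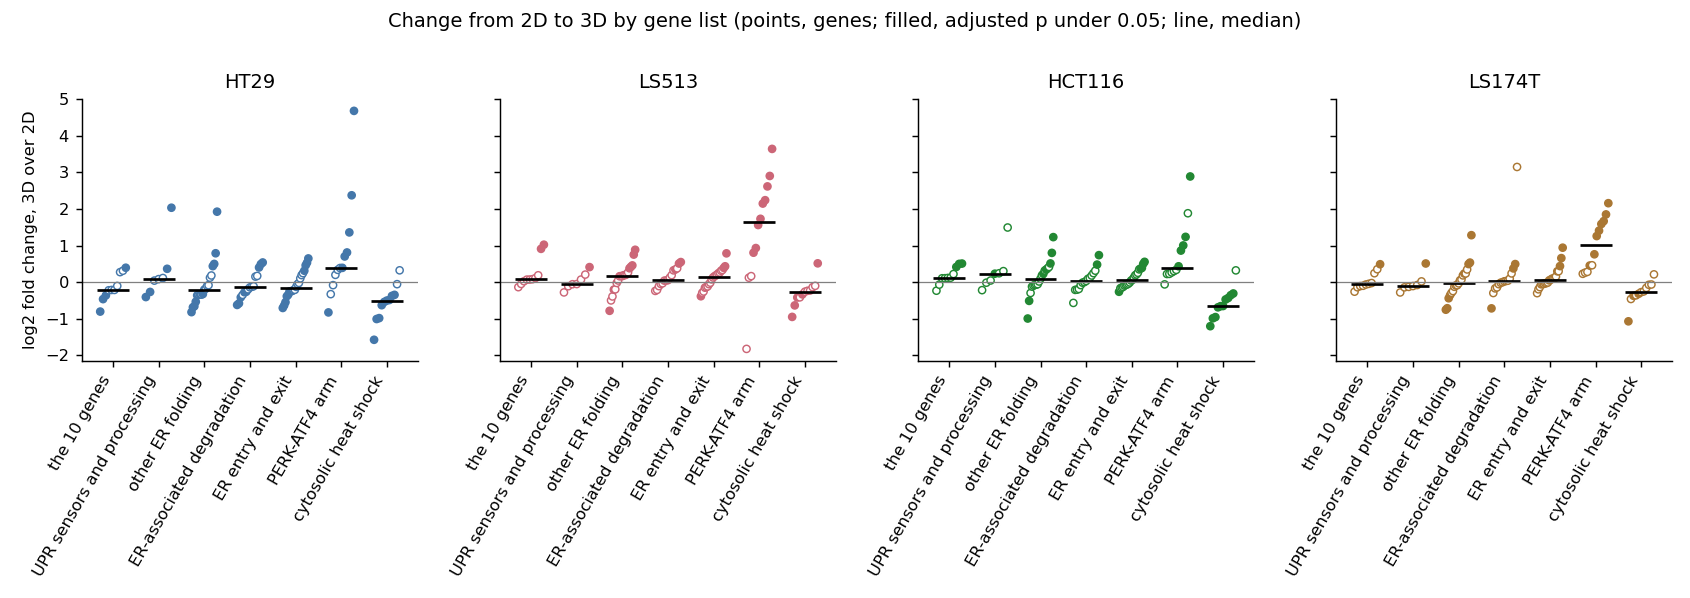
Log2 fold change from 2D to 3D of every tested gene of the 10 and of the 6 lists, by line, with points filled where the edgeR adjusted p is under 0.05 and a bar at the median of each list. The bar of the PERK-ATF4 arm is above 0 and that of the list labeled cytosolic heat shock, which includes the mitochondrial HSPD1 and HSPE1, below 0 in all 4 lines. The topmost HT29 point is NUPR1, whose 2D libraries hold 0 to 4 counts, so that its height depends on the prior count.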

How the data were processed

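The authors prepared stranded poly(A) libraries, trimmed the reads with Trim Galore (0.4.1), aligned them with STAR and counted reads per Ensembl gene with HTSeq (0.5.3), and deposited raw read counts, with no normalization, for each technical replicate. The labels list hg19, while the identifiers are those of an Ensembl annotation, so gene coordinates were not taken from the files. Counts were summed over technical replicates into 24 libraries, whose technical replicates agree within counting noise (median chi-square per degree of freedom 0.905 to 0.933, where counting alone gives 0.907).

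The members and the gene lists were chosen with earlier results of these data known. Genes were filtered with filterByExpr, and 8 group means were fitted to all 24 libraries in edgeR 4.0.16 (R 4.3.3; TMM, robust quasi-likelihood F tests), with contrasts for growth within each line, 6 pairs of lines in each form of growth, and the interaction. Fold changes are edgeR's. The genes named are all members, the list genes with the largest called increase and decrease in each line, the sensors, and the 5 genes most correlated with HSPA5; CANX, the genes called in all 4 lines and those with a promoter element were named after their values were seen. Alternatives were DESeq2 size factors, no filter on low counts, a replicate block, DESeq2 (1.42.0), fits to 1 line, leaving out technical replicate d, and leaving out each library. Promoter sequences were read from a RefSeq table (GRCh38.p14).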

Additional observations from a re-analysis of the deposited data

Results flagged for a closer look

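By the interaction test, the effect of 3D growth differed between the 4 lines for 4 of the 10 genes, against 17.1% of all tested genes. The edgeR adjusted p was 1.85e-04 for HSPA5, 0.0013 for HSP90B1, 0.0219 for PDIA4 and 0.0255 for XBP1. For the first 3, the log2 fold change in HT29 (-0.81, -0.46 and -0.36) was below those in the other lines, and for XBP1 the log2 fold change in LS513 (-0.14) was below those in the other lines (0.27 to 0.51). PDIA4 lost the call in 11 and XBP1 in 4 of the 24 fits that left out a library. With the replicate block, HSPA5 alone passed. Groups of 3 libraries were not searched for outlying samples.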

How the results depend on the processing

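The 3 members that fell in HT29 and the 2 that rose in LS513 passed under every alternative, joined in HT29 by CALR in the fit to the 6 HT29 libraries alone, which gave 4, and the counts of combinations of a gene and a pair of lines stayed within 1.5 times. Of the 480 single-gene values in these comparisons, 443 kept direction and side of the threshold, 12 newly passed, 19 no longer passed and 6 changed sign. This tally leaves out, for each line, only libraries of that line. Without a library of another line, DNAJB9 (8 fits) and HERPUD1 (6 fits) also lost their calls in HCT116. XBP1 in HT29 (9 fits) and DNAJB11 and HERPUD1 in LS174T (1 fit each) newly passed. Members that rose in HT29 were 2 in place of 1 with DESeq2 size factors, with no filter on low counts, with DESeq2 and with the 6 HT29 libraries alone, and between 0 and 2 with a library left out. In HCT116 they were between 1 and 3 with a library left out, 4 with DESeq2 size factors and with DESeq2, and 2 without technical replicate d. In LS174T they were 2 with no filter on low counts, 0 with the 6 libraries of the line alone, and between 0 and 2 with a library left out, while 1 member, DNAJB11, fell with DESeq2. Over the 6 lists together, with a library left out, the genes that fell in HT29 were 19 to 26 (33 in the fit to all), those that fell in LS513 were 4 to 11 (7), those that rose and fell in HCT116 were 10 to 19 and 8 to 14 (18 and 13), and those that rose and fell in LS174T were 11 to 22 and 5 to 13 (19 and 8). With only the libraries of a line, 13 list genes fell in LS513, and 9 rose and 3 fell in LS174T. With a library left out, 2 to 5 members passed the interaction test. The sign changes were all of values that did not pass, with a library left out: SDF2L1 in LS513 ran from -0.0297 to 0.0877, HSP90B1 in LS174T from -0.0523 to 0.00336, SDF2L1 in LS174T from -0.192 to 0.0652 and CRELD2 in LS174T from -0.251 to 0.0085 on the log2 scale. Where a call moved, the cause was not tested beyond the smaller number of libraries or genes that the alternative itself brings.

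Equal replicate numbers in 2D and 3D did not pair the libraries: the deviations of 11 same-numbered pairs from their group means had correlations between -0.15 and 0.09, and the labels do not say that a number marks cultures handled together. With the replicate block, 0 members rose in HT29, 12 list genes rose and 18 fell there, and 1 member, HSPA5, passed the interaction test (edgeR adjusted p 0.0163), while HSP90B1 (0.0644), XBP1 (0.0556) and PDIA4 (0.153) did not. HERPUD1 no longer passed in HT29 or HCT116 with the block (edgeR adjusted p 0.137 and 0.0747).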
